A study of Mus musculus with 2 samples.

Results

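DNase I-seq reads out where the enzyme cuts nuclear DNA, and a footprint is a short stretch inside cut chromatin that is cut less than the bases around it. The footprints described here are those that lay outside every called peak of their own sample and were found there in both samples. They were selected on the peak and footprint calls themselves. A footprint entry was outside when it shared no base with an entry of either peak list of its sample, and it was kept when it shared at least 1 base with an outside footprint of the other sample. In replicate 1, 14782 of 291716 footprints met this rule (5.07%), and in replicate 2, 14697 of 295617 (4.97%). Joined over the samples they formed 13975 shared regions. With every peak widened by 100 bp this number was 3008.

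The data came from whole thymus of male B6CASTF1/J mice aged 2 months, in 1 group of 2 replicates. B6CASTF1/J is the first-generation cross of C57BL/6J and CAST/EiJ, so that each animal carries a genome set of each strain, while all intervals are given on the mm10 reference. The labels describe a separate animal for each replicate but give both the same donor identifier. There was no treatment and no second condition, so the comparison is between kinds of footprint within each replicate.

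Accessible chromatin is found where nucleosomes are absent or loosened, mostly at promoters and enhancers. A DNA-bound protein shields its bases from DNase I, and a footprint is read as the trace of such shielding. Peak callers mark the summit of the cut density, and the cut density falls off over the flanks of the summit. The thymus is where T cells mature, and most of its cells are thymocytes.

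The label of the tissue was checked at promoters. Of 16 thymocyte markers, 15 had a strict peak within 1000 bp of a transcription start site (TSS) in both replicates, and Dntt did not. Of 5 hepatocyte markers 0 had one. B cell, macrophage, thymic epithelial and erythroid markers had one at 1 of 5 each, and endothelial and fibroblast markers at 3 of 5 each. The deposited peaks came as a shorter list, called strict here, and a longer, looser list. Replicate 1 had 63832 strict and 91754 looser entries, and replicate 2 had 67929 and 100264. The number of sequenced reads is not stated in the files.

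The footprints are shown here as reference sequence, to make plain what an entry is. The widest shared region of each genomic place was chosen, among those whose surroundings occur once in the genome. Every line is GRCm38 (mm10), plus strand, 5′ to 3′, with 20 bases on each side in lower case and the footprint in capitals. The promoter example, chr17:56935487-56935554, lay 106 bp upstream of Mllt1, which encodes a reader of acetylated histones. The exon example, chr8:71521948-71521985, lay in an exon of Ccdc194. The intron example, chr7:4940120-4940167, lay in Ssc5d, which encodes a secreted scavenger receptor protein. The intergenic example was chr12:113222456-113222502. The last line, chrX:169991500-169991546 in an intron of Mid1, is the widest shared region in whose surroundings no 31-base word is unique.
Mllt1 promoter: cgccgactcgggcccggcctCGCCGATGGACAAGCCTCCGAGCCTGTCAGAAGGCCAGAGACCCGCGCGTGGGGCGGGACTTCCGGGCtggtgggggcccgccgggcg
Ccdc194 exon: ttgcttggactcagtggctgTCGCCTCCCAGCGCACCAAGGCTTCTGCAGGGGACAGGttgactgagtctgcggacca
Ssc5d intron: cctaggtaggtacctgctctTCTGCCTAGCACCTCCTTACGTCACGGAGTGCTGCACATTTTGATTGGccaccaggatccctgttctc
Chromosome 12 intergenic: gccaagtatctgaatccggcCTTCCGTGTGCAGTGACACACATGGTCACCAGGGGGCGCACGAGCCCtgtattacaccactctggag
Mid1 intron: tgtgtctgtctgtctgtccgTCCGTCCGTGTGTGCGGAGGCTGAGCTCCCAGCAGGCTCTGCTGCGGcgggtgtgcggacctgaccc
These regions are the extremes of width; a typical one was much shorter, as the widths below show.

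The first question was how many footprints outside the peaks recur. In replicate 1, 59122 footprints lay outside both peak lists (20.3% of all), and in replicate 2, 45554 (15.4%). Of these, 25% in replicate 1 (95% Wilson interval 24.7 to 25.4%) and 32.3% in replicate 2 (31.8 to 32.7%) overlapped an outside footprint of the other replicate. A further 14.8% and 18.1% overlapped only a footprint that touched a peak in the other replicate. The remaining 60.2% in replicate 1 and 49.7% in replicate 2 overlapped no footprint of the other replicate. Footprints that recurred outside the peaks were thus a minority of the outside footprints in each replicate. For footprints wholly inside strict peaks, 55.5% in replicate 1 and 52.4% in replicate 2 overlapped such a footprint of the other replicate; these 104334 and 102370 shared entries are the inside footprints used for comparison below. The intervals cover counting error only, and footprints beside 1 peak are not independent. By the rule, shared footprints are largely the same places in both replicates. Their agreement between replicates in genomic place, position and sequence is thus largely set in advance. With 2 replicates an exact paired permutation test cannot give a two-sided p under 0.5, so differences are given as the values of both replicates without a p.

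Where 1 entry of each replicate overlapped 1 of the other, the borders could be compared. Of 12592 such pairs outside peaks, 6.35% had the same start and end in both replicates (5.94 to 6.79%), against 6.92% of 84405 pairs inside strict peaks (6.76 to 7.10%). The centres differed by a median of 2 bp outside and 1.5 bp inside, and the 90th percentile of that difference was 6.5 bp outside and 6 bp inside. The widths differed by a median of 3 bp in both kinds. The share with both borders equal was thus slightly lower outside, and no test of this difference was run.

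Shared outside footprints were narrow. Their median width was 11 bp in both replicates, against 14 bp in replicate 1 and 17 bp in replicate 2 for inside footprints. The mean was 13.6 bp and 13.1 bp outside, against 17.9 bp and 19.4 bp inside. Entries of 30 bp or more made up 3.94% and 3.54% of shared outside footprints, against 15.6% and 18.9% of inside footprints. Outside footprints that did not recur were narrower still, with a median of 8 bp in both replicates. The chance to overlap a footprint of the other replicate grows with width, so the rule itself favours wider entries, and the comparison is best read between the 2 shared kinds.

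All shared outside footprints lay close to a peak. Counted as the bases between a footprint and the nearest peak edge of its own sample, the median gap was 45 bp in replicate 1 and 50 bp in replicate 2. In replicate 1, 52.8% lay under 50 bp from a peak and 6.16% lay 200 bp or more away; in replicate 2 these shares were 49.7% and 7.10%. The largest gap was 783 bp in replicate 1 and 593 bp in replicate 2. None lay farther than that from a peak of its own sample. Measured between centres, the distance to the nearest peak was a median of 188 bp and 182.5 bp, against 45 bp and 40.5 bp for inside footprints, and the bin from 140 to 150 bp held the most shared outside footprints.

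**Figure D1:**
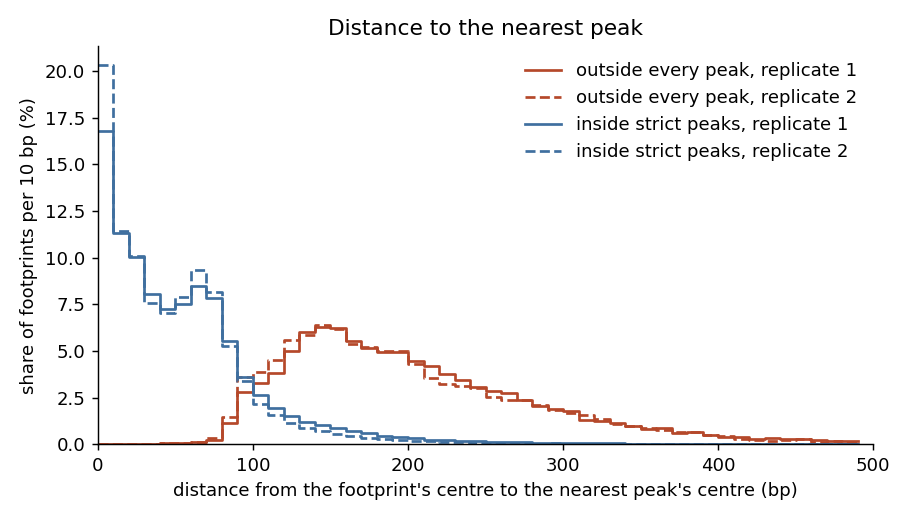
Share of footprints in each 10 bp bin of the distance between the centre of the footprint and the centre of the nearest peak, for shared footprints outside every peak and inside strict peaks, in both replicates. Outside footprints had a median distance of 188 bp in replicate 1 and 182.5 bp in replicate 2, and inside footprints 45 bp and 40.5 bp; the 2 replicates run together.

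The values on both sides of the peak edge are a description of the rule's threshold. In replicate 1, 2031 shared outside footprints lay under 10 bp from a peak, with a mean width of 14.5 bp, 74.3% within 1000 bp of a TSS and a median nearest peak score of 8.86. Footprints that reached 1 to 10 bp into a peak numbered 6905, with a mean width of 12.4 bp, 57.6% near a TSS and a median score of 4.92. In replicate 2 the 1899 entries just outside had 15.7 bp, 69.7% and 6.20, and the 7644 entries that reached in had 12.98 bp, 55.9% and 3.62. The entries that reached in carry no condition that they recur, and the limit of 10 bp favours narrow ones. All footprints that crossed a peak edge were wider, with a mean of 16.2 bp in replicate 1 and 16.9 bp in replicate 2. Of these, 62.4% and 58.2% were near a TSS.

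The peaks beside these footprints were strong. The nearest peak was a strict one for 99.7% of shared outside footprints in replicate 1 and 99.6% in replicate 2. Its score, the submitters' own signal value, had a median of 10.8 and 7.91, against 3.41 and 2.94 for the peaks that hold inside footprints. After entries that overlap were joined there were 90500 peaks in replicate 1 and 99410 in replicate 2, and 8188 of them (9.05%) and 8399 (8.45%) had at least 1 shared outside footprint beside them. Of these peaks, 24.2% in replicate 1 and 22.8% in replicate 2 had such footprints on both sides. One peak of replicate 1 had 10 and one of replicate 2 had 12, while 4598 and 4912 peaks had 1.

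Having such a footprint rose steeply with peak score. In the decile of peaks with the highest score, 62.8% in replicate 1 and 57.6% in replicate 2 had one beside them. In the next decile it was 16.2% and 14.8%, and in the lowest decile 0.0442% and 0.0302%. The rise was present at promoters and away from them. In the highest decile, 66.8% of peaks within 1000 bp of a TSS had one in replicate 1 and 63.5% in replicate 2, against 38.2% and 30.3% of the other peaks. Peak width had a median of 240 bp for peaks with such a footprint and 200 bp for those without in replicate 1, and 220 bp and 184 bp in replicate 2. The part of sequencing depth in this rise was not tested.

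**Figure D2:**
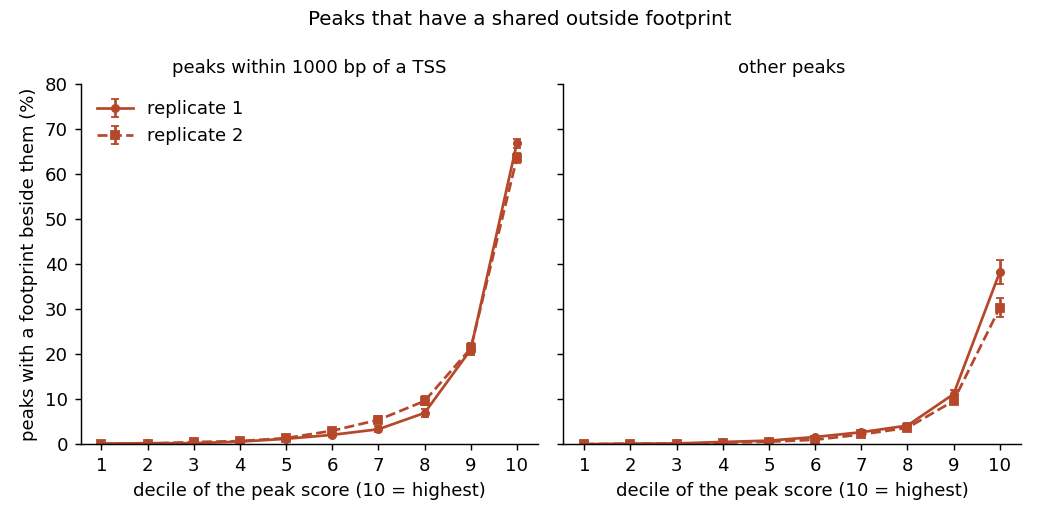
Share of peaks with at least 1 shared outside footprint beside them, by deciles of the peak score over all joined peaks of a replicate, with 95% Wilson intervals, for peaks within 1000 bp of a TSS on the left and other peaks on the right. The share stays under 12% up to decile 9 away from promoters and reaches 66.8% and 63.5% in decile 10 at promoters.

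Shared outside footprints were mostly promoter footprints. By their centre, 85.8% in replicate 1 (95% Wilson interval 85.2 to 86.3%) and 86.0% in replicate 2 (85.4 to 86.5%) lay within 1000 bp of an annotated TSS. This was 51.4% and 51.6% for inside footprints, and 6.05% of the genome lies within that window. Introns held 6.07% and 6.04% of shared outside footprints, against 23.3% and 23.2% of inside footprints. Intergenic sequence held 7.04% and 6.85%, against 21.6% and 21.5%, and exons 1.14% and 1.13%, against 3.76% and 3.73%. Outside footprints that did not recur stood between, with 66.1% and 67.2% near a TSS. Of the 13975 joined regions, 12000 lay near a TSS, 966 in intergenic sequence, 847 in introns and 162 in exons.

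**Figure D3:**
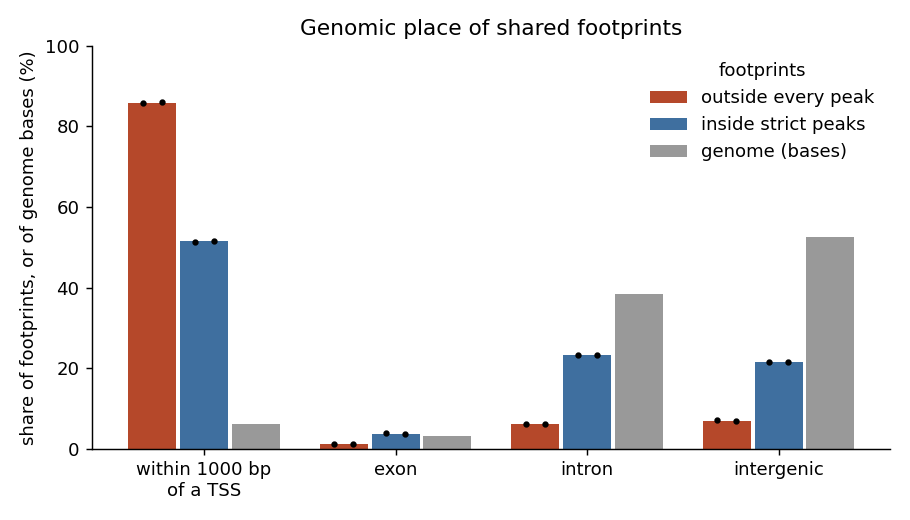
Share of footprints by genomic place, for shared footprints outside every peak and inside strict peaks, beside the share of genome bases. Bars are means of the 2 replicates and points are the replicates. Outside footprints were within 1000 bp of a TSS in 85.8% and 86.0% of cases, against 51.4% and 51.6% of inside footprints.

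Within promoters, the shared outside footprints took other positions than the inside footprints. Inside footprints piled up just upstream of the TSS, where the transcription machinery assembles. Outside footprints formed 2 humps, the second of which spanned the TSS. In bins of 20 bp, the upstream hump was highest from -180 to -160 bp in both replicates, and a dip lay from -80 to -60 bp. The bin of the dip held 1.82% of promoter outside footprints in replicate 1 and 1.89% in replicate 2, against 6.07% and 6.08% of inside footprints. The bin from -20 to 0 bp, the highest for inside footprints, held 5.12% and 5.03% of outside footprints, against 11.8% and 11.9% of inside footprints. Downstream of the TSS lay 52.2% of promoter outside footprints in replicate 1 (51.3 to 53.1%) and 52.3% in replicate 2 (51.4 to 53.1%), against 36.3% and 36.4% of inside footprints. Within 50 bp of a TSS lay 23.4% in each replicate, against 39.7% and 39.9% of inside footprints. The median offset was +97 bp for outside footprints downstream and -168 bp for those upstream, in both replicates. The TSS here is the nearest start of any annotated transcript, so an upstream footprint can lie inside a gene. No dip lay at the TSS itself, where the bin from 0 to 20 bp held 5.49% and 5.58% of outside footprints. The rule keeps outside footprints off the peaks. The dip from -80 to -60 bp, where inside footprints were frequent, can thus be partly set by the rule. The positions of peaks around the TSS were not measured.

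**Figure D4:**
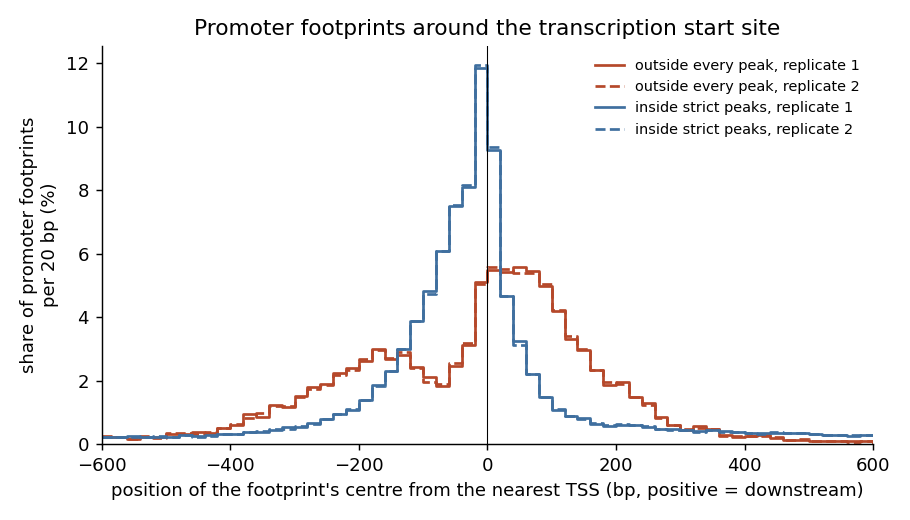
Share of promoter footprints in each 20 bp bin of the position of their centre from the nearest TSS, positive downstream in the direction of transcription, for shared footprints outside every peak and inside strict peaks, in both replicates. Inside footprints form 1 hump just upstream of the TSS, and outside footprints form 2 humps with a dip from -80 to -60 bp.

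The sequence of outside footprints differed between the 2 sides of the TSS. The split is at the TSS and not at the dip, so the upstream side holds part of the second hump. Upstream outside footprints had a mean GC content of 62.7% in replicate 1 and 62.8% in replicate 2, in the 40 bp around the centre, and downstream ones 69.8% and 69.7%. CpG dinucleotides, the sites of DNA methylation in mammals, numbered 7.62 and 7.65 per 100 bp upstream and 10.5 per 100 bp downstream in both replicates. Inside footprints at promoters had no such contrast, with 66.5% and 66.6% GC upstream and 66.8% and 66.7% downstream. Annotation places 49.8% of promoter outside footprints in exons in both replicates, 23.1% and 23.3% in introns and 27.1% and 26.9% outside genes; for inside footprints this was 41.4% and 41.5% in exons, 23.7% and 23.6% in introns and 34.9% in each replicate outside genes.

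Position also changed with distance from the peak. Of shared outside footprints under 25 bp from a peak, 77.0% in replicate 1 and 75.3% in replicate 2 were near a TSS. Of those 200 bp or more away, it was 94.9% and 93.8%. Their mean GC content was 59.2% and 57.6% in the near group and 69.4% and 69.6% in the far group, with intermediate values at each distance between. The footprints farthest from a peak were thus mostly GC-rich promoter sequence. The 5 farthest from any peak of either sample all lay within 1000 bp downstream of a TSS, in Pcmt1 (chr10:7662600-7662611, 569 bp from a peak), Ckap5 (498 bp), Ube3c (493 bp), Zfp157 (472 bp) and Cited2 (447 bp). Pcmt1 encodes an enzyme that repairs damaged aspartyl residues, Ckap5 a microtubule polymerase, Ube3c a ubiquitin ligase and Cited2 a transcriptional coregulator.

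The deposited FDR track gives a false discovery rate of the cut rate for each stretch of bases and lists only stretches under 0.05. It listed 1.48% of the genome in replicate 1 and 1.36% in replicate 2. Every base was listed for 99.96% of shared outside footprints in replicate 1 and 99.95% in replicate 2, against 100% of inside footprints in both. The exceptions were 6 footprints in replicate 1 and 8 in replicate 2. The footprints were made from the track and the alignments, per the deposited file descriptions, so this coverage describes how they were made. All but 123 and 133 shared outside footprints reached an FDR of 0.001 somewhere. Outside footprints that did not recur reached it in 88.5% and 85.6% of cases.

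The runs of listed bases that held these footprints were long. Their median length was 1451 bp in replicate 1 and 1392 bp in replicate 2, against 866 bp and 725 bp for inside footprints. The same run also held a peak for 99.95% and 99.90% of shared outside footprints. It held the footprint's own nearest peak in 99.86% and 99.78% of cases. Of all runs, 67.3% and 70.1% held a peak, a share counted by run and not by footprint, so long runs weigh less in it. Except for 8 footprints in replicate 1 and 14 in replicate 2, each thus lay in the same significant stretch as a peak.

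The median of the lowest FDR over a footprint, as −log10, was 42.8 in replicate 1 and 31.7 in replicate 2 for shared outside footprints, against 23.0 and 23.5 for inside footprints. The order turned within promoters. There it was 47.0 and 34.3 for outside footprints, against 52.6 and 44.4 for inside footprints. Away from promoters it was 16.8 and 15.8, against 12.4 and 14.96. Upstream of the TSS the medians were 47.9 and 37.4 outside and 61.6 and 53.1 inside; downstream they were 46.1 and 31.9 outside and 38.9 and 32.1 inside. The higher median over all places thus did not hold for promoter footprints as a whole, and downstream of the TSS the replicates differed in order. These divisions by place were chosen after the values had been seen.

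Along the chromatin, the FDR was lower towards the peak. This direction is largely set by the rule, which keeps the footprint off the peak, and by turning the peak to 1 side. The values are therefore a description. When footprints were turned so that the nearest peak's centre lay on the right, the median −log10 FDR at the outside footprint's centre was 40.6 in replicate 1 and 29.9 in replicate 2. It was highest at 190 bp towards the peak, with 85.25 and 68.7, and at 100 bp on the far side it was 19.7 and 13.7. For inside footprints it was 22.2 and 22.45 at the centre, and its highest value, 24.7 and 24.9, lay 40 bp towards the peak's centre.

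**Figure D5:**
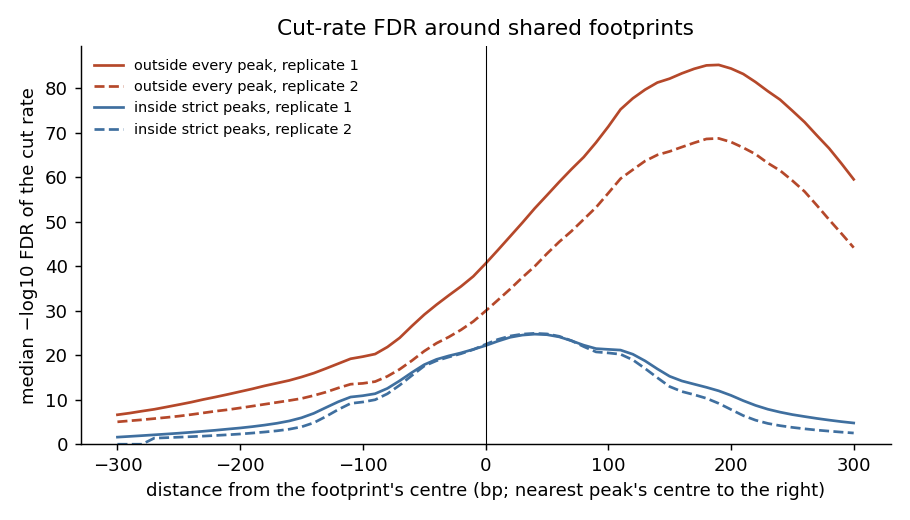
Median −log10 of the cut-rate FDR by distance from the centre of the footprint, with bases outside the track counted as 0 and the nearest peak's centre on the right, for shared footprints outside every peak and inside strict peaks, in both replicates. Outside footprints lie on a slope that is highest 190 bp towards the peak, with 85.25 in replicate 1 and 68.7 in replicate 2. The direction of the slope is largely set by the rule and by placing the peak on the right.

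Some shared outside footprints had extreme values. Among the widest joined regions, which lay at promoters, were those near Mllt1 (68 bp, printed above), Wdr34, Wdr18 and Endov (57 bp each). The Wdr18 footprint, chr10:79960035-79960091, was 57 bp wide in both replicates and lay 89 bp upstream of the TSS and 14 bp from a peak. At the other 3 named regions the replicates differed in width. The footprint was 25 bp wide in replicate 1 and 68 bp in replicate 2 at Mllt1, 37 bp and 13 bp at Wdr34, and 57 bp and 17 bp at Endov. Wdr34 encodes a dynein intermediate chain and Endov an endonuclease for inosine. The 5 lowest FDR values were 3 regions in an intron of Mid1, 1 at P3h1 (chr4:119232858-119232911, 30 bp upstream of the TSS) and 1 at Hdgfl2 (280 bp upstream). P3h1 encodes a collagen prolyl hydroxylase and Hdgfl2 a chromatin reader related to hepatoma-derived growth factor. By the mean over the replicates the first was chrX:169991121-169991131 in Mid1, a joined region whose −log10 FDR was 628.2 in replicate 1 and 260.5 in replicate 2. In replicate 2 another Mid1 region, the one printed above, was higher, with 369.9, against 337.5 in replicate 1.

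Repeated sequence was scarce in these footprints. Soft-masked bases, which mark repeats in the reference, made up a mean of 11.9% in replicate 1 and 11.7% in replicate 2, against 10.4% and 10.2% for inside footprints and 36.4% of the genome. Away from promoters the share was 23.3% and 23.0%, against 14.1% and 13.8% for inside footprints, and at promoters 9.98% and 9.89%, against 6.82% and 6.80%. In 89.4% of shared outside footprints in each replicate, every 31-base word in the surrounding 200 bp occurred once in the genome, against 89.5% and 89.6% of inside footprints. Away from promoters this was 80.7% in each replicate, against 86.6% and 86.7%.

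A set of 21 shared regions had no unique word around it, and 16 of them lay on chromosome X, in Mid1 (8 regions) and in or near Gm21887. In the C57BL/6 reference Mid1 spans the boundary of the pseudoautosomal region, which X and Y share. All 16 had an exact copy on chromosome Y, and 0 of those copies carried a footprint in either replicate. Of the 5 regions with the lowest FDR, 3 belong to this set. How reads from the 2 copies were assigned is not given in the sources used here, so values there may combine both chromosomes. The other 5 of the 21 included 1 in Hist1h2bl, a gene of the histone cluster.

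Over all places, shared outside footprints were richer in GC, with a mean of 64.2% in each replicate, against 61.5% for inside footprints in each. Within promoters the means were 66.4% in each replicate, against 66.6%, and away from promoters 50.3% and 50.5%, against 56.1% in each. The difference over all places therefore ran against that in each place, and went with the larger promoter share of outside footprints. CpG numbered 8.26 and 8.29 per 100 bp over all places, against 5.87 and 5.90, and 9.14 and 9.17 within promoters, against 8.87 and 8.88.

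Consensus matches were sought in the 40 bp around each centre, on both strands, for 13 motifs. They were CTCF (an insulator protein), ETS (ACCGGAAGT), RUNX (TGTGGTT followed by A or T), E-box (CANCTG), TCF/LEF (CTTTG followed by 2 bases, each A or T), GATA (GATA after A or T and before A or G), AP-1 (TGACTCA or TGAGTCA), NFY (CCAATCA), SP/KLF (GGGGCGGGG), NRF1, YY1, CREB (TGACGTCA) and IRF. CTCF, NRF1, YY1 and IRF have longer consensus sequences and are given by name. A window can hold several of them. A match is a description of the letters and not a site.

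Within promoters, matches of 8 of the 13 motifs were less frequent in outside than in inside footprints. NFY, which binds CCAAT boxes, had matches in 0.387% of outside footprints in replicate 1 (0.293 to 0.511%) and 0.419% in replicate 2 (0.321 to 0.548%), against 1.79% (1.68 to 1.90%) and 1.84% (1.73 to 1.96%) of inside footprints. CREB had 0.221% and 0.206%, against 0.879% and 0.900%. NRF1, a factor of housekeeping promoters, had 0.126% and 0.127%, against 0.573% and 0.583%. SP/KLF, the GC box, had 4.03% and 4.11%, against 6.10% and 6.18%. CTCF had 0.371% and 0.372%, against 1.38% and 1.39%. ETS had 0.158% and 0.174%, against 0.437% and 0.443%. RUNX, bound by a factor family that T cells need, had 0.110% and 0.111%, against 0.256% and 0.269%. E-box, bound by E proteins, had 5.85% and 5.99%, against 7.12% and 7.06%. For these 8 motifs, within promoters, the Wilson intervals of the 2 kinds did not overlap in either replicate. Both replicates hold largely the same places by the rule, so the second adds little to this comparison. The 2 kinds differ in position around the TSS, as described above, and position was not matched in this comparison.

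Within promoters, the intervals overlapped in both replicates for the other 5 motifs. YY1 had 0.394% and 0.388% within promoters, against 0.319% and 0.333%, TCF/LEF 1.00% and 1.12%, against 1.08% and 1.06%, GATA 1.26% and 1.28%, against 1.198% and 1.178%, IRF 0.252% and 0.261%, against 0.233% and 0.250%, and AP-1 0.174% and 0.190%, against 0.269% and 0.258%. Windows 2000 bp to either side of shared outside footprints of all places were taken where they touched no peak. They had YY1 matches in 0 of 27327 cases in replicate 1 and 1 of 27174 in replicate 2. SP/KLF matches were in 0.0878% and 0.0736% of them, but GATA matches in 6.63% and 6.66%. CTCF, ETS, NRF1 and CREB shares were also lower there than in outside footprints of all places. RUNX, E-box, TCF/LEF, AP-1 and IRF shares were, like GATA, higher there. NFY matches were in 0.337% and 0.346% of windows, against 0.352% and 0.367%. The base composition of those windows was neither measured nor matched. Over all places, where outside footprints are more often promoter footprints, TCF/LEF, AP-1, SP/KLF and YY1 stood differently. TCF/LEF matches were in 1.285% and 1.395% of outside footprints, against 1.84% and 1.83% of inside footprints. AP-1 matches were in 0.169% and 0.204%, against 0.501% and 0.497%. For TCF/LEF and AP-1 the intervals were apart in both replicates. SP/KLF matches were in 3.64% and 3.74% of outside footprints, against 3.63% and 3.70% of inside footprints. YY1 matches were in 0.359% (0.274 to 0.469%) and 0.354% (0.270 to 0.464%), against 0.173% (0.149 to 0.200%) and 0.181% (0.157 to 0.209%), with intervals apart in both replicates.

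Positions of matches around the TSS are set beside the 52.2% and 52.3% of all promoter outside footprints that lay downstream. Of promoter outside footprints with a YY1 match, 34 of 50 in replicate 1 (68.0%, 54.2 to 79.2%) and 34 of 49 in replicate 2 (69.4%, 55.5 to 80.5%) lay downstream. Of those with an SP/KLF match, 192 of 511 (37.6%, 33.5 to 41.8%) and 194 of 519 (37.4%, 33.3 to 41.6%) did. Of those with an NFY match, 12 of 49 (24.5%, 14.6 to 38.1%) and 13 of 53 (24.5%, 14.9 to 37.6%) did. The median position of a footprint with an NFY match was 88 bp upstream of the TSS in both replicates. E-box matches, the most frequent, lay downstream in 381 of 741 (51.4%) and 388 of 757 (51.3%) cases, CTCF matches in 24 of 47 and 23 of 47, and NRF1 matches in 9 of 16 in each replicate. GATA matches lay downstream in 50 of 160 (24.6 to 38.8%) and 48 of 162 (23.1 to 37.1%). TCF/LEF matches did in 47 of 127 (29.1 to 45.7%) and 47 of 141 (26.1 to 41.5%). IRF matches did in 8 of 32 (13.25 to 42.1%) and 9 of 33 (15.07 to 44.2%). CREB matches did in 9 of 28 (17.9 to 50.7%) and 8 of 26 (16.5 to 49.99%). YY1 thus stood above the share of all promoter outside footprints. SP/KLF, NFY, GATA, TCF/LEF, IRF and CREB stood below it in both replicates, and E-box was close to it. For CTCF, NRF1, ETS, RUNX and AP-1 the intervals held it.

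The widest shared regions with a CTCF or YY1 match are shown with the match in capitals, on GRCm38 (mm10), plus strand, with 20 bases on each side of the region. The CTCF example, chr15:35071621-35071665, lay in an intron of Stk3, which encodes a kinase of the Hippo pathway. The YY1 example, chr11:83473331-83473363, lay in Taf15, which encodes an RNA-binding protein, and its match was on the minus strand. The YY1 example was added after the motif shares had been seen.
Stk3 CTCF: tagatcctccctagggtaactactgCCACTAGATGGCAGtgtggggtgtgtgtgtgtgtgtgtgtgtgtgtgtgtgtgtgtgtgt
Taf15 YY1: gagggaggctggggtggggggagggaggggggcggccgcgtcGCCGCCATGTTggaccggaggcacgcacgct
The CTCF example runs on into a TG repeat, and 42.9% of the words around it were unique.

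Genes were counted over the joined regions. Of 21938 protein-coding genes, 6582 (30%) had a shared region within 1000 bp of a TSS. Of the 12940 with a strict promoter peak in both replicates, 6575 (50.8%) had one. Among 25 T lineage transcription factors 12 had one, or 48.0% (30.03 to 66.5%), and all 25 had a promoter peak. Among 25 genes of the T cell receptor complex and its signalling 8 had one, out of 23 with a promoter peak, and among 20 thymocyte stage genes 6, out of 18. Set against genes with a promoter peak, the shares were 48.0%, 34.8% and 33.3%. Lists of other cell types had 1 of 12 B cell genes, 1 of 10 thymic epithelial, 2 of 10 fibroblast, and 0 of 10 macrophage, erythroid, endothelial and hepatocyte genes each. Against genes with a promoter peak this was 1 of 6 B cell genes (16.7%), 1 of 4 thymic epithelial genes (25%) and 2 of 5 fibroblast genes (40%), the last of which was above 2 of the 3 thymocyte lists. Thy1, 1 of the 2 fibroblast genes, is also on the T cell receptor list.

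The thymocyte genes with the most shared regions at a promoter were Egr1 with 6 and Ikzf1 with 5. Egr1 encodes a factor induced by T cell receptor signals and Ikzf1 encodes Ikaros, a lymphoid regulator. Rasgrp1, Plcg1 and Nfatc3, which act in receptor signalling, had 3 each. Notch1, Cd8b1 and Thy1 had 2 each, as did Fyn, Bcl11b, Ets2 and Satb1, which come later in genome order.

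At Egr1 the 6 regions lay on chr18 between 34859871 and 34860970, and all 6 were in annotated UTR bases. Only 1 of them, 52 bp downstream of its nearest TSS, lay near the annotated start of the gene at 34859823. The others lay 247 to 437 bp upstream of a TSS within the gene. Their −log10 FDR ranged from 37.6 to 107.3 in replicate 1 and from 23.4 to 34.2 in replicate 2. Those at Ikzf1 had lower values in both replicates, from 15.3 to 23.9 and from 7.34 to 12.6. At Cd8b1, a subunit of the CD8 coreceptor, a 33 bp region lay 173 bp upstream of the TSS and a 19 bp region 130 bp downstream. The nearest peak of both had a score of 9.36 in replicate 1 and 7.16 in replicate 2. Around the 33 bp region 81.8% of words were unique. At Thy1, a surface protein of thymocytes, 1 region lay 182 bp upstream of a TSS and 49 bp from a peak in both replicates. At Notch1, which starts the T cell programme, a 24 bp region 299 bp upstream had a −log10 FDR of 139.2 in replicate 1 and 6.63 in replicate 2, so the replicates differed widely.

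The 100 kb window with the most, chr10:80100001-80200000, held 22 regions and 8 protein-coding genes, among them Stk11, a tumour suppressor kinase, and Cirbp, a cold-inducible RNA-binding protein. The window chr11:69000001-69100000 held 19 regions, with Aurkb and Per1 among 7 genes, and chr7:28300001-28400000 held 17, with Supt5 and Paf1 among 9. Every word around the region was unique for 95.5% of regions in the first window, 94.7% in the second and 64.7% in the window on chromosome 7. Within 1000 bp of a TSS lay 19 of the 22, 15 of the 19 and 14 of the 17. The gene bodies with the most regions were Gm20388 with 74, Fgfr2 with 24, Gm37240 with 13, and H2-DMa and Mid1 with 12 each. Gm20388 is annotated from 119910841 to 124345722 on chromosome 8 and covers many other genes, so its count is that of the genes it spans. The annotation of Fgfr2, from 130162451 to 133123350 on chromosome 7, and that of Gm37240, from 84496426 to 85887518 on chromosome 3, are also long, and each had 0 regions within 1000 bp of its TSSs. H2-DMa is annotated from 34119541 to 34139101 on chromosome 17 and had 13 regions within 1000 bp of its TSSs. Whether those regions belong to H2-DMa or to a neighbouring gene was not tested. Chromosome X held 1.56% of shared regions, against 2.35% of inside footprints in each replicate, and chromosome Y held 3 regions.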

How the data were processed

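DNase I-seq of whole thymus was deposited for 2 replicates. All files are on mm10 per the labels. Per the file headers and deposited descriptions, peaks, footprints and FDR tracks were made separately for each sample from its alignments, and footprints also from the FDR track. The deposited peak lists give a signal value per peak, whose scale is not stated. In the deposited FDR tracks each stretch of bases has a false discovery rate (a q-value, the multiple-testing form of a p-value), and stretches at 0.05 or more are left out. The deposited footprints carry a constant score of 0.01 and were used as positions. Depth, aligner and calling tools are, however, not given in the sources used here.

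From these, overlaps of at least 1 bp were computed, and peaks of both lists that overlap were joined. TSSs, exons and genes came from GENCODE M21 and sequence from GRCm38.p6 of RefSeq, on 21 chromosomes. The starts of all annotated transcripts were used as TSSs. Places were assigned by the centre of each footprint, in the order promoter, exon, intron, intergenic. Uniqueness used 31-base words in 200 bp windows. Runs are adjoining entries of the FDR track. Joined regions take their gap from all 4 peak lists. Shares carry 95% Wilson intervals.

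The footprints, gene lists and motifs were chosen with earlier results of these data known. Regions were named by rule: the 5 widest, the 5 farthest from a peak, the 5 of lowest FDR, the 5 genes with most regions in their body, up to 8 thymocyte genes with most at a promoter, and 3 windows of 100 kb. Printed sequences left out chromosome 18 and annotated UTRs, and 1 of the widest regions is not reported here. Alternatives changed the peak lists, a 100 bp margin, the overlap (50% reciprocal), uniqueness (90%), the TSS window (500 and 2500 bp), the motif window (100 bp) and the replicates. Overlap, interval and motif routines were tested on simulated data. Python 3.11.15, numpy 2.4.6, pandas 2.3.3, numba and matplotlib were used.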

Additional observations from a re-analysis of the deposited data

How the results depend on the processing

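The number of joined regions, 13975, was within 1.5 times under every alternative of peak list, overlap and uniqueness except for peaks widened by 100 bp, which left 3008. Without the condition that a footprint recurs, each replicate alone gave 45554 to 59122 footprints. The mean width, 13.3 bp, was 12.9 bp outside the strict list alone, 12.85 bp with widened peaks, 13.7 bp with 50% reciprocal overlap and 10.9 to 11.03 bp with 1 replicate. The median gap, 47.5 bp, was 33 bp outside the strict list alone, 157.5 bp with widened peaks and 43 to 53 bp with 1 replicate. The promoter share, 85.9%, was 72.8% outside the strict list alone, 92.4% with widened peaks, 86.1% with reciprocal overlap, 86.7% with unique words, 82.1% and 88.9% with TSS windows of 500 and 2500 bp, and 71.0 to 73.2% with 1 replicate. The soft-masked share, 11.8%, was 14.2%, 10.6%, 12.03% and 10.8% under the first 4 of these in the same order, and 11.2 to 11.5% with 1 replicate. Coverage by the FDR track, 99.95%, was 99.07% outside the strict list alone, 100% with widened peaks, 99.97% with unique words, 99.99% counting any base and 98.6 to 99.03% with 1 replicate. Mean GC, 64.2%, was 62.4% outside the strict list alone, 64.23% outside all 4 lists, 69.3% with widened peaks, 64.1% with reciprocal overlap, 64.6% with unique words, 62.2% in 100 bp windows and 61.2 to 61.4% with 1 replicate.

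Against footprints with any overlap of a strict peak, the difference outside minus inside was 33.6 points in promoter share (34.4 with footprints wholly inside), 2.85 in GC (2.67) and -2.75 in CTCF matches (-2.97). Within promoters, chosen after seeing the data, the CTCF difference was -1.01, and 2 differences reversed. The median −log10 FDR difference was -7.81 (13.99 over all places) and the GC difference -0.175. CTCF matches in 100 bp windows differed by -3.83. The CTCF share of outside footprints, 0.407%, ranged up to 0.962% with widened peaks and down to 0.277% without replicate 1, and their median −log10 FDR, 37.2, ranged from 21.5 without replicate 1 to 37.95 with reciprocal overlap. Values neither given here nor within those 2 ranges moved by less than the spread between the replicates. Counted over all results, 56 settings moved, 30 did not and 2 reversed. That spread is small for sequence, as both replicates hold largely the same places by the rule. The width difference (-5.35 bp) kept its sign in each alternative run. Each difference was taken within a replicate and so is paired; the series has 1 group, and no further replicate block could be added. Depth is not stated in the files, so no limit of detection can be given for a footprint beside a weak peak.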
